A study of Mus musculus with 5 samples.

Results

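The genes of the C/EBP family were examined as 4 loci in mouse bone marrow progenitors that carried retroviral HA-tagged Hoxa9 and Flag-tagged Meis1. Members were all called peaks and regions that touched the mm9 gene positions of Cebpa and Cebpg (a shared stretch of 76 kb on chromosome 7), Cebpb, Cebpd or Cebpe, extended by 100 kb on either side. These 4 windows made up 0.883 Mb of the 2574 Mb between the first and last calls of each chromosome, and held 175 of 166982 calls. Of these, 34 of 26446 were C/EBPα peaks, 8 of 6578 were Hoxa9 peaks, 122 of 100189 were H3K4me1 regions and 11 of 33769 were H3K27me3 regions.

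All 4 lists came from chromatin immunoprecipitation followed by sequencing (ChIP-seq) in one kind of cell: lineage-depleted C57B6 bone marrow, transduced with the retroviruses MIGR1-Flag-Meis1 and MIGR1-HA-Hoxa9 and grown with IL3. The anti-HA antibody precipitated the introduced Hoxa9 and could not see Hoxa9 from the cells' own gene, whereas C/EBPα was precipitated as the cells made it. There was 1 library per precipitation and no untransduced control, so no value has a replicate error and none shows what the introduced proteins changed. The lists hold no expression values, so the labelled cell type was not checked against markers and no peak is tied to a gene's activity.

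C/EBP proteins are basic leucine zipper factors that bind DNA as dimers with themselves or with each other, and they recognise the same palindromic sequence. C/EBPα, the product of Cebpa, is required for the step to granulocyte and monocyte progenitors. In mouse it is known to bind its own promoter, and a distal enhancer downstream of Cebpa is known to act in myeloid progenitors. Cebpb encodes a factor of macrophages and of emergency granulopoiesis, Cebpd one of the acute inflammatory response, and Cebpe one of late granulocyte maturation. Cebpg encodes a short family member that serves mainly as a dimer partner. H3K4me1 marks enhancers and H3K27me3 marks chromatin repressed by Polycomb.

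C/EBPα had called peaks in all 4 windows, Hoxa9 peaks lay in the Cebpa/Cebpg and Cebpe windows, and H3K27me3 was called in the Cebpa/Cebpg window alone. The Cebpa/Cebpg window held 13 C/EBPα peaks, Cebpb 11, Cebpe 7 and Cebpd 3. Each count was set beside tiles of the window's own length laid end to end along all chromosomes, as a description with no test. Of the tiles, 2.87% held 13 or more C/EBPα peaks, 2.26% held 11 or more, 9.83% held 7 or more and 30% held 3 or more. The median tile held 1. The Cebpa/Cebpg and Cebpb windows were thus among the fuller tiles, and Cebpd was not. Tiles include stretches poor in genes or hard to map, and the windows were chosen because they hold genes, so these shares describe rank and nothing more.

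**Figure D1:**
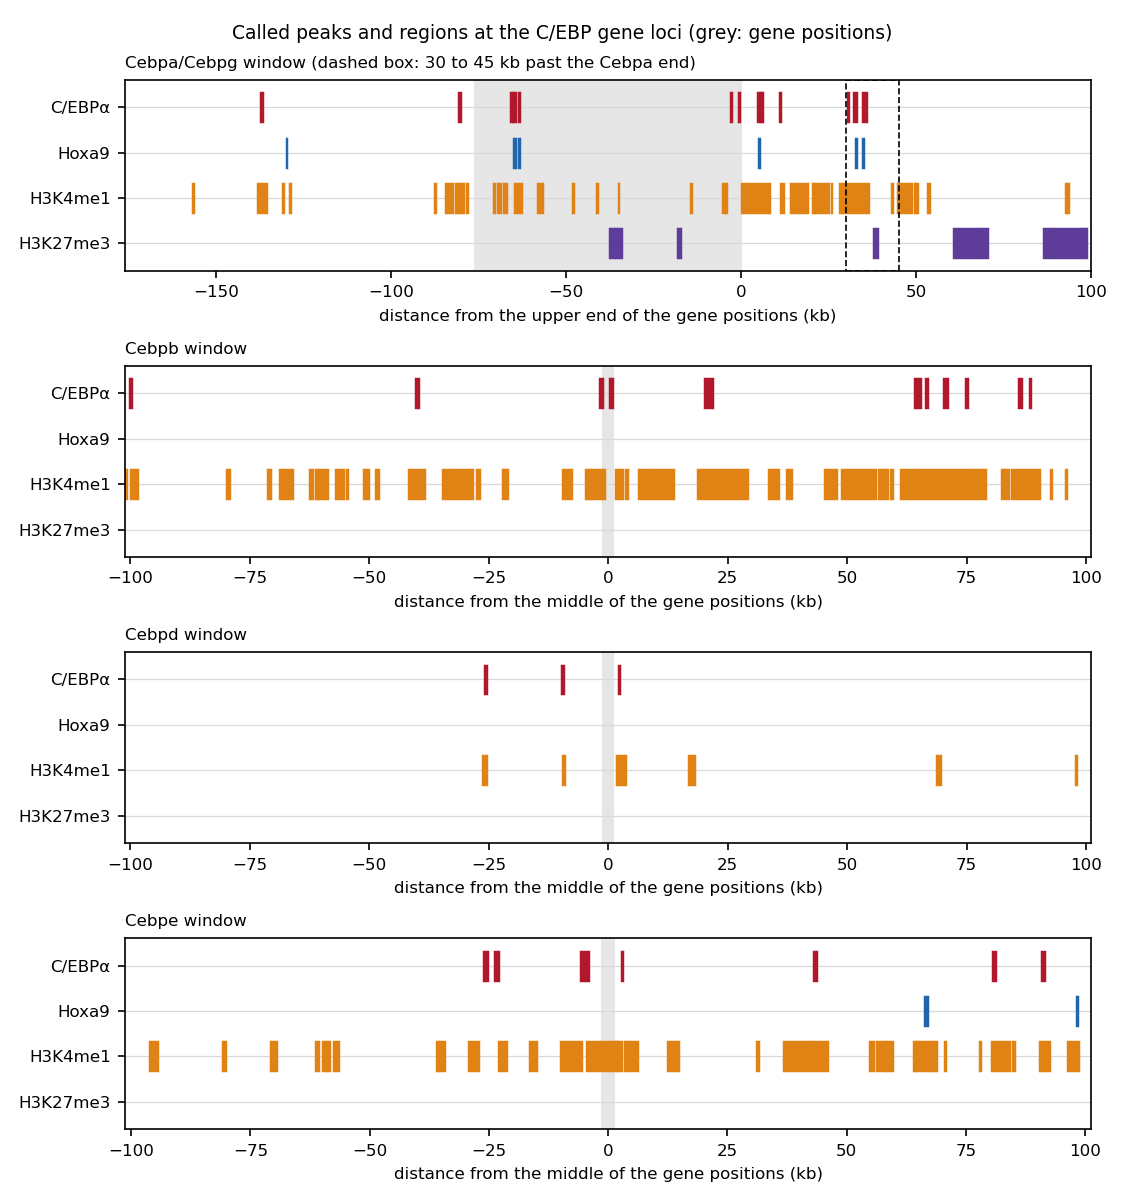
Called peaks and regions in the 4 windows, drawn to scale in kb, with 1 row per list and the gene positions in grey. Distances run from the upper end of the gene positions at Cebpa/Cebpg and from their middle in the other windows. The Cebpa/Cebpg window holds calls of all 4 lists, the Cebpe window of 3 and the Cebpb and Cebpd windows of C/EBPα and H3K4me1.

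Promoter sequences are shown for Cebpa, Cebpb and Cebpg, the 3 of the 5 genes that matched the promoter set by symbol. They come from RefSeq on GRCm38.p6, each from 250 bases before to 50 bases after the annotated start. Cebpd and Cebpe did not match, although C/EBPα summits lay 1.24 kb from the Cebpd and 1.66 kb from the Cebpe positions. The windows are chr7:35119043-35119342 for Cebpa and chr2:167688665-167688964 for Cebpb, both on the plus strand, and chr7:35056517-35056816 for Cebpg, on the minus strand. Capitals mark every match to the motifs searched on both strands, which were TTNNGNAA and TTGCGCAA (C/EBP), TGATTTAT and TTTAT (Hox), CCAAT (the CCAAT box), GAGGAAG (ETS factors) and TTGCG, a C/EBP core added after the sequences were seen.
Cebpa (plus strand): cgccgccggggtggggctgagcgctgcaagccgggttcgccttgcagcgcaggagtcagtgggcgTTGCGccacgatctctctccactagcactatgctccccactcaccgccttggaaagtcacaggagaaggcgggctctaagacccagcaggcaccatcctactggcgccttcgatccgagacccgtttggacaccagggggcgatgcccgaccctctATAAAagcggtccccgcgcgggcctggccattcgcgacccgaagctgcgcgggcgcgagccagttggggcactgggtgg
Cebpb (plus strand): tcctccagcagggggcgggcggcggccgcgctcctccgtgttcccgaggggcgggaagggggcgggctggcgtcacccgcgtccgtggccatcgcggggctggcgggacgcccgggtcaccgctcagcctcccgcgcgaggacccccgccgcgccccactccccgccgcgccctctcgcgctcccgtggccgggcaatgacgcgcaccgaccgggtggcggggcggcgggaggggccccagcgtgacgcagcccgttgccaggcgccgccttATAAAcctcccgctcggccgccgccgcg
Cebpg (minus strand): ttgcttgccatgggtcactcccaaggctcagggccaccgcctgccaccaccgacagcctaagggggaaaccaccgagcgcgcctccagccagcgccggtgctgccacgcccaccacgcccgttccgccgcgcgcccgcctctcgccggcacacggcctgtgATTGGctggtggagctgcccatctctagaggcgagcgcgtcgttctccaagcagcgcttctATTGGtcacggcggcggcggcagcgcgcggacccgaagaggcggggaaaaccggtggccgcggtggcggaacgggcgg

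None of the 3 windows held TTNNGNAA, which 40.7% of 32851 promoters held, nor TTGCGCAA (0.183%), TGATTTAT (0.977%) or GAGGAAG (13.6%). The Cebpa promoter held 1 TTGCG, which began 185 bases before the start, a core that 17.4% of promoters held. The Cebpg promoter held 2 reversed CCAAT boxes, beginning 89 and 28 bases before its start, a motif of 37.4% of promoters. The single TTTAT match in Cebpa and in Cebpb (40.01% of promoters) was the ATAAA of a TATAAA run. All 3 promoters were rich in G and C, with 67.3% in Cebpa, 80.7% in Cebpb and 71.7% in Cebpg against a median of 52.7% over all promoters. The sequences and the peak lists are of different builds, so whether a C/EBPα peak covers these bases was not determined.

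At the Cebpa/Cebpg locus, C/EBPα peaks fell into groups at either end of the gene positions and beyond the Cebpa end. On GRCm38 Cebpg lies below Cebpa, so the lower end of the mm9 stretch is taken as the Cebpg end and the upper as the Cebpa end, and downstream of Cebpa means past the upper end. A pair of C/EBPα peaks lay at the Cebpa end. The one from 35903814 to 35904471 held 43 tags (reads counted in the peak) at a fold enrichment of 10.1 over the caller's background, with its summit 2.9 kb inside the upper end. The other, from 35906138 to 35906712, had a fold enrichment of 7.24, 29 tags and a summit 0.562 kb inside that end. Both are ordinary in strength: 64.8% and 45.8% of the C/EBPα list had a lower fold enrichment. Neither touched a Hoxa9 peak, the nearest Hoxa9 summits being 8037 and 5698 bp away, and both lay in a gap of 4041 bp between H3K4me1 regions.

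The first H3K4me1 region past the Cebpa end ran from 35906986 to 35914752, a width of 7.767 kb with a fold enrichment of 13.76. By enrichment it ranked 304 of 100189. Inside it a C/EBPα peak from 35911670 to 35912619 (fold enrichment 12.7, 96 tags) and a Hoxa9 peak from 35911723 to 35912504 (6.67, 44 tags) had summits 7 bp apart, the closest pair at any of the 4 loci. A second and weaker C/EBPα peak, from 35912769 to 35913184 (6.21, 19 tags), shared the same region. Another C/EBPα peak stood further out at 11.2 kb past the end, with a fold enrichment of 5.72.

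Between 30 and 45 kb past the Cebpa end lay 3 C/EBPα and 2 Hoxa9 peaks, all within 1 H3K4me1 region. That region ran from 35934894 to 35943577, was 8.684 kb wide with 825 tags, and had a fold enrichment of 13.97, the highest of the 122 members and rank 264 of 100189. Its strongest C/EBPα peak, from 35939104 to 35940013, held 112 tags at a fold enrichment of 20.92, above 89.6% of the list, with its summit 32.6 kb past the end. The Hoxa9 peak that touched it, from 35939447 to 35940122, held 27 tags at a fold enrichment of 5.49, with summits 191 bp apart. At 35.6 kb the C/EBPα peak from 35941549 to 35942977 (7.04, 83 tags) touched the Hoxa9 peak from 35941493 to 35942091 (5.93, 29 tags), but their summits were 799 bp apart. The remaining C/EBPα peak, at 30.5 kb, had a fold enrichment of 8.98 and no Hoxa9 partner. The Hoxa9 peaks of the stretch were stronger than 36.0% and 45.5% of their own list, below its middle. How many tiles as long as this stretch held as many factor peaks was not computed.

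Past the Cebpa end, H3K27me3 was called only beyond the last factor peak, though few factor peaks touch H3K27me3 anywhere. Over the whole lists, 2.09% of C/EBPα and 1.49% of Hoxa9 peaks did. A region from 35944733 to 35946030 (fold enrichment 7.90, 1.298 kb) followed the H3K4me1 region of the 30 to 45 kb stretch, with its summit at 38.2 kb. From 45 to 100 kb past the Cebpa end there were 6 H3K27me3 regions covering 21.6 kb, or 39.2% of the length, and 0 C/EBPα and 0 Hoxa9 peaks. H3K4me1 had 6 regions there too, covering 7.27 kb or 13.2% of the length, against 4.64% of the whole span. A stretch of 55 kb without factor peaks is common: 70.3% of tiles of that length held no C/EBPα peak and 89.1% no Hoxa9 peak. The first 20 kb past the end had 0 H3K27me3 regions, 3 C/EBPα peaks, 1 Hoxa9 peak and 71.7% of the length under H3K4me1. How common such values are in tiles of 20 kb was not computed. Over the whole span, H3K27me3 covered 2.51% and H3K4me1 4.64%. A stretch without H3K27me3 is common: even of the longer tiles of 202 kb, 54.6% held none. The strongest H3K27me3 regions ran from 35967579 to 35975586 (8.008 kb, fold enrichment 35.89, 1517 tags) and from 35994880 to 36004356 (9.477 kb, 27.42, 1242 tags). On GRCm38 the next coding genes above Cebpa are Slc7a10, an amino acid transporter, and Lrp3, and which genes these regions cover on mm9 was not determined. Another 4 H3K27me3 regions lay inside the gene positions, at fold enrichments from 4.62 to 7.45, with C/EBPα peaks of the same stretch both below and above them. Where each gene begins or ends on mm9 was not determined.

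**Figure D2:**
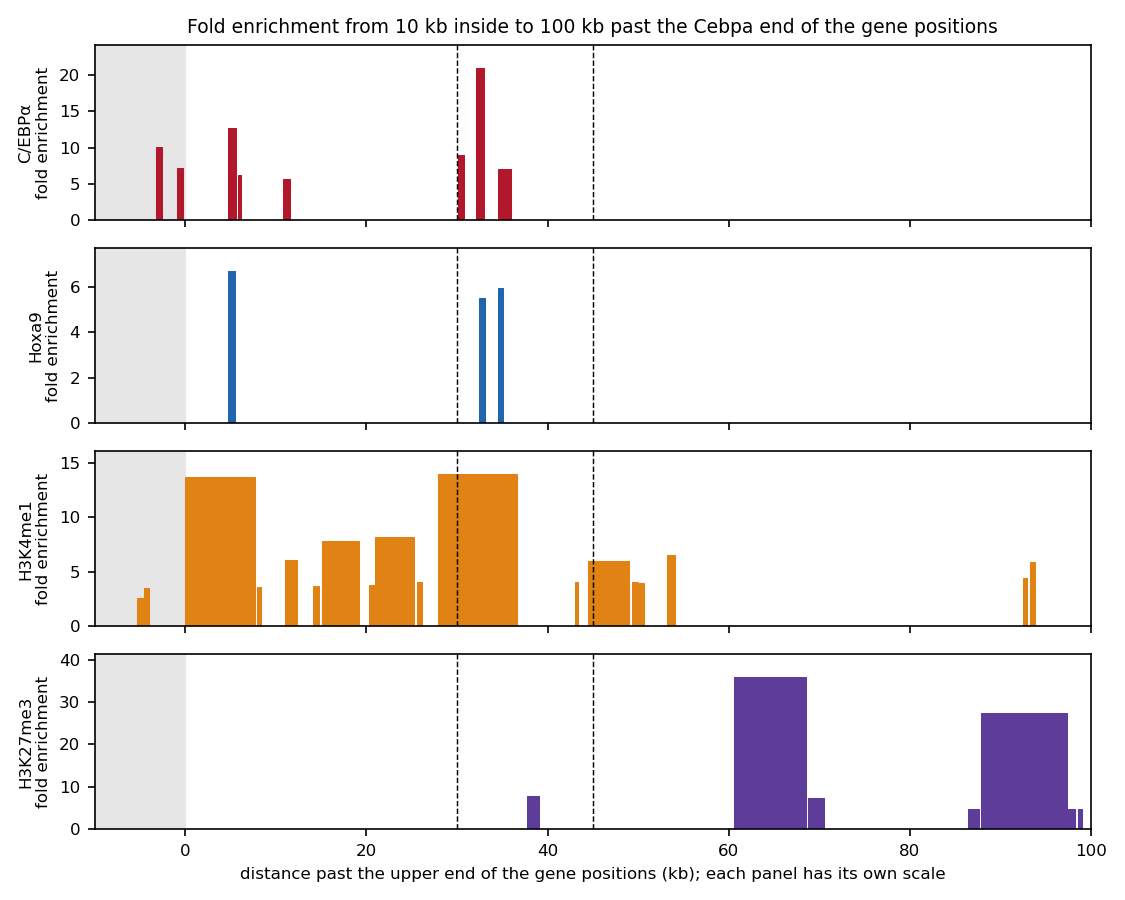
Fold enrichment of each call (bar height, with a scale of its own per panel) against the distance past the Cebpa end of the gene positions in kb, 1 panel per list; dashed lines mark 30 and 45 kb. Factor peaks end at 35.6 kb, the tallest C/EBPα bar is the peak at 32.6 kb, and the wide H3K27me3 regions stand at 64.5 and 92.7 kb.

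At the Cebpg end, 3 C/EBPα peaks stood in a row between 35840849 and 35843860, with summits 10.2, 11.4 and 12.6 kb above the lower end and fold enrichments of 11.11, 11.7 and 6.40. The upper pair each touched a Hoxa9 peak. The Hoxa9 peaks, from 35841914 to 35842671 and from 35843167 to 35843864, had fold enrichments of 5.05 and 7.04 with 38 and 41 tags, and their summits lay 153 and 138 bp from those of C/EBPα. Both pairs lay in an H3K4me1 region of 2.114 kb with a fold enrichment of 6.86, and the third C/EBPα peak lay in a gap of 1941 bp just below it. The strongest C/EBPα peak of the whole window was also on this side, 4.48 kb below the lower end, from 35826108 to 35827044, with 132 tags at a fold enrichment of 26.94. The Hoxa9 summit nearest to it was 15690 bp away. The last C/EBPα peak of the window, 61.2 kb below, had a fold enrichment of 6.09.

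The Cebpb locus combined strong C/EBPα peaks with the widest cover of H3K4me1 and had no Hoxa9 peak. A C/EBPα peak touched the gene positions, from 167515280 to 167516066 on chromosome 2, with 91 tags at a fold enrichment of 24.54, more than 92.7% of the list in enrichment. It was the strongest C/EBPα peak at any of the 4 gene positions. No H3K4me1 region covered it: its summit stood in a gap of 2137 bp, 1294 bp from the region below and 844 bp from the region above. A weaker peak with a fold enrichment of 6.70 had its summit 0.581 kb below the gene positions.

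Most C/EBPα peaks of the Cebpb window, 7 of 11, lay above the gene, and 3 lay below. At 20.3 kb above, a peak from 167535081 to 167536908 held 213 tags at a fold enrichment of 22.71 inside an H3K4me1 region of 10.624 kb. From 63.6 to 74.0 kb above lay 4 peaks that all touched the widest H3K4me1 region of the 4 windows, 11.099 kb from 167579640 to 167590738 with 1009 tags, rank 133 of its list by width. Among them were the peaks from 167579080 to 167580467 (fold enrichment 32.45, 255 tags) and from 167585069 to 167586135 (52.38, 285 tags), the second ranking 163 among 26446 C/EBPα peaks. The others had fold enrichments of 6.70 and 5.21. On GRCm38 the 7 genes that follow Cebpb upwards are all long non-coding RNAs, beginning with A530013C23Rik, and the next coding gene is Ptpn1.

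H3K4me1 covered 95.9 kb of the Cebpb window, or 47.5% of its length in 43 regions. Only 14 of 12736 tiles of that length, 0.110%, had as much. The region with the highest fold enrichment in the window, 11.09, ran from 167523751 to 167528796, was 5.046 kb wide and touched no factor peak. H3K27me3 had no region there, which was also true of 54.6% of tiles. The absence of Hoxa9 calls is common too: 71.2% of tiles held none, and the nearest Hoxa9 summit to any C/EBPα peak of the window was 56076 bp away. A site too weak to be called at this depth would not appear, so a peak list without Hoxa9 does not show that Hoxa9 was absent.

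The Cebpe locus held the C/EBPα peak with the highest fold enrichment of all 34. The peak, on chromosome 14 from 55324281 to 55326147, held 419 tags at a fold enrichment of 55.8 and ranked 122 in its list. Its summit lay 3.42 kb below the gene positions, in a gap of 841 bp between H3K4me1 regions of 4.787 and 5.544 kb, both of which the peak touched. The upper of these regions covered most of the gene positions, ending at 55331258, short of their end at 55331500. Together with the next region up it covered 96.2% of the Cebpe positions. At 42.0 kb above the gene a C/EBPα peak from 55373145 to 55373992 held 89 tags at a fold enrichment of 21.1 and touched H3K4me1 regions of 6.324 and 2.949 kb. The third in strength, 79.6 kb above, had a fold enrichment of 7.41 with 50 tags, and the other 4 had 3.51 to 6.17. H3K4me1 covered 62.8 kb of the window, 31.0% of its length, and 1.71% of tiles had as much.

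Hoxa9 had 2 peaks in the Cebpe window, and neither touched a C/EBPα peak. The first, from 55396551 to 55397392, lay 65.5 kb above the gene with 50 tags at a fold enrichment of 7.72, and the C/EBPα summit next to it was 14188 bp off. The second, from 55428389 to 55428801, lay 97.1 kb above with 17 tags at a fold enrichment of 5.49, the lowest tag count in the Hoxa9 list. Both lay in H3K4me1 regions. On GRCm38 Slc7a8, Rnf212b and Homez follow Cebpe on that side, so these peaks need not concern Cebpe. Of the tiles of that length, 12.5% held 2 or more Hoxa9 peaks, against 1.05% of the longer tiles that held 6 or more, as the Cebpa/Cebpg window did.

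The Cebpd locus was the sparsest. Its 3 C/EBPα peaks had fold enrichments of 5.25, 9.20 and 3.70 with 21, 24 and 15 tags. The last was the closest to the gene, from 15890063 to 15890460 on chromosome 16 with its summit 1.24 kb above the gene positions, and only 2.80% of the list was weaker. It lay inside the widest of 6 H3K4me1 regions, 2.089 kb from 15889669 to 15891757 with a fold enrichment of 7.67. The other C/EBPα peaks also lay in H3K4me1 regions, 24.5 and 8.42 kb below the gene. H3K4me1 covered 6.41 kb or 3.18% of the window, against 4.64% of the whole span, and 33.7% of tiles had as much. The median tile had less, 0.959 kb. No Hoxa9 peak and no H3K27me3 region was called within the window. On GRCm38 the next gene up is Spidr, a DNA repair gene, and the peak above Cebpd was not assigned to either gene.

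**Figure D3:**
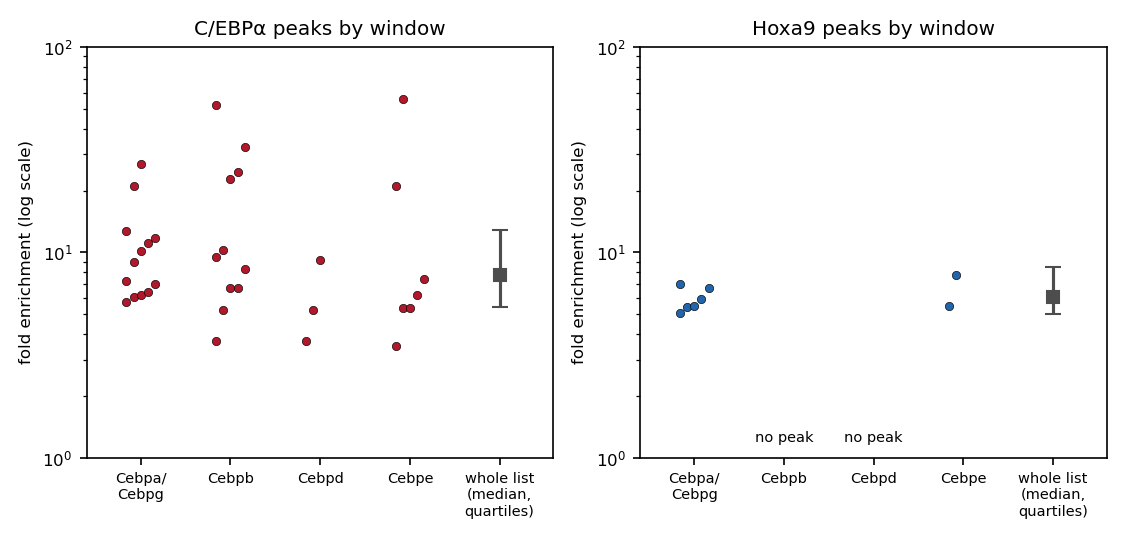
Fold enrichment (log scale) of each C/EBPα peak on the left and each Hoxa9 peak on the right, by window, beside the median and quartiles of the whole list. C/EBPα peaks reach 55.8 at Cebpe and 52.38 at Cebpb and stay at or under 9.20 at Cebpd, and all 8 Hoxa9 peaks stay at or under 7.72.

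C/EBPα peaks of very different strength stood side by side in 3 of the 4 windows. Over the 34 peaks the median fold enrichment was 7.845, against 7.74 over the whole list. Of the 34, 13 had a fold enrichment of 10 or more, or 38.2% (95% exact interval 22.2 to 56.4), against 35.7% of the list, so this share was near the background. At 20 or more there were 8, or 23.5% (10.7 to 41.2), against 11.4% of the list. These 8 were 2 peaks at Cebpa/Cebpg, 4 at Cebpb and 2 at Cebpe. Medians by window were 8.98 at Cebpa/Cebpg, 9.51 at Cebpb, 5.25 at Cebpd and 6.17 at Cebpe. Intervals cover counting error alone, and neighbouring peaks are not independent.

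Hoxa9 peaks at these loci were weak to middling. Their fold enrichments ran from 5.05 to 7.72 with a median of 5.71, against 6.06 over the list. None of the 8 reached 10, against 16.7% of the list, and a count of 0 in 8 allows a share of up to 37.5%. Of the 8, 5 touched a C/EBPα peak, 62.5% (24.5 to 91.5) against 56.9% of all Hoxa9 peaks, and all 5 lay in the Cebpa/Cebpg window. Conversely, 5 of 34 C/EBPα peaks touched a Hoxa9 peak, 14.7% (4.95 to 31.1) against 14.2% of the list. Sharing at the loci was thus near the background. In the Cebpa/Cebpg window 5 of the 6 Hoxa9 peaks were shared, and neither of the 2 at Cebpe was, a difference that was not tested. The 5 pairs had a median of 153 bp between summits, against 73 bp for the nearest C/EBPα summit over all 3742 shared Hoxa9 peaks. The single unshared Hoxa9 peak of the Cebpa/Cebpg window, 54.0 kb below the lower end, held 20 tags at a fold enrichment of 5.41, and no C/EBPα summit nearer than 7181 bp.

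H3K4me1 touched 29 of the 34 C/EBPα peaks, 85.3% (68.9 to 95.05), against 73.6% of the list, and 7 of the 8 Hoxa9 peaks, 87.5% (47.3 to 99.7), against 82.4%. Of the 5 C/EBPα peaks that it did not touch, 3 were in the Cebpa/Cebpg window, including both peaks at the Cebpa end, 1 was the peak on the Cebpb positions, and 1 lay below Cebpe. Of the 6 C/EBPα peaks that touched gene positions, 4 touched no H3K4me1 region. However, 5 of these 6 lay in the 76 kb Cebpa/Cebpg stretch, while the other gene positions are 2 to 2.5 kb long. The same share over peaks at other genes was not computed, so the count describes neither promoters nor gene bodies. Among the 13 C/EBPα peaks with a fold enrichment of 10 or more, 10 touched an H3K4me1 region, 76.9% (46.2 to 94.96), against 85.7% of such peaks in the list, and 3 touched a Hoxa9 peak, 23.1% (5.04 to 53.8), against 22.9%. Summits between 2 H3K4me1 regions, each at most 2 kb away, numbered 4 of 34, or 11.8%, against 9.28% of the list, a measure chosen after the peaks were seen. These 4 included the strongest peak of Cebpe and the peak on Cebpb, but at the peak from 167579080 to 167580467 the gap was only 54 bp. H3K27me3 touched none of the 34 C/EBPα peaks, against 2.09% of the list, and none of the 8 Hoxa9 peaks, against 1.49%. A count of 0 in 34 allows a share of up to 8.82%, so no difference from the lists was detectable at this number.

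The H3K4me1 regions of the loci had a median width of 1130 bp, against 768 bp over the list. Their median fold enrichment was 5.32 against 4.84. Of the 122, 8 were 5 kb or wider, 6.56% (2.87 to 12.5) against 1.77% of the list, with 2 at Cebpa/Cebpg, 4 at Cebpb, 2 at Cebpe and 0 at Cebpd. A fold enrichment of 10 or more was reached by 7, 5.74% (2.34 to 11.5) against 3.34%. Of the 8 wide regions, 7 touched at least 1 C/EBPα peak, 87.5% (47.3 to 99.7), against 75.8% of all 1771 regions as wide, a share near the background. In the Cebpa/Cebpg window H3K4me1 covered 57.8 kb, 20.9% of the length, and 5.32% of tiles had as much.

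H3K27me3 covered 27.4 kb of the Cebpa/Cebpg window, 9.91% of its length against 2.51% of the whole span, and 7.22% of tiles had as much. The marks met in 2 of the 11 H3K27me3 regions, 18.2% (2.28 to 51.8) against 14.6% of the list. One was the region from 35871113 to 35872902 inside the Cebpa/Cebpg positions, which held an H3K4me1 region of 0.439 kb. The other was the wide region from 35994880 to 36004356, which held H3K4me1 regions of 0.452 and 0.630 kb.

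**Figure D4:**
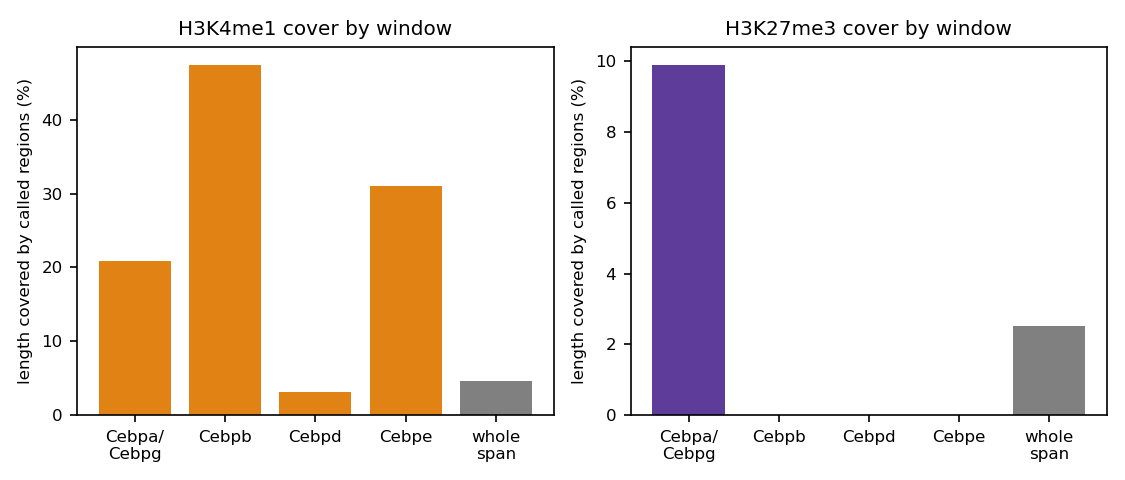
Share of each window's length under called H3K4me1 (left) and H3K27me3 (right) regions in percent, beside the share of the whole span of the lists in grey. H3K4me1 covers 47.5% at Cebpb and 3.18% at Cebpd, and H3K27me3 covers 9.91% of the Cebpa/Cebpg window and 0% of the others.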

How the data were processed

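The authors processed the sequencing reads. The submitters' processing notes name MACS 1.4, BWA 0.6.2 and CASAVA 1.8.2, with mm9 as the build; which settings and control the caller had is not given in the sources used here. Each of the 4 peak lists holds, per the file headers, positions, widths, summits and 4 values for each peak of 1 library. Tag counts were deposited as whole reads in each peak, without normalization. The deposited score multiplies the −log10 of a peak's p-value by 10 and begins at 50.01 or 50.02 in these lists. The deposited fold enrichment is a linear ratio, and the deposited false discovery rate is in percent, at most 1.33% among the members. All are the authors' values and were used only to describe or rank peaks within a list. Depth is unknown, as no library totals were at hand. The input library was not used here.

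Windows were the gene positions with 100 kb added on each side, and a call belonged to a window if it touched it. Peaks counted as shared with at least 1 bp in common. Summits were counted from 1 at the peak's start. Tiles of each window's length were laid along the span of the lists on 20 chromosomes. Shares carry exact Clopper-Pearson intervals at 95%, and the limit for a count of 0 is 3 counts. With 1 library per precipitation no test between conditions was possible. Overlap and cover code (Python 3.11.15, pandas 2.3.3, scipy 1.17.1) was tested on simulated lists. All 5 genes were named. Peaks described singly were those at the gene positions and those 30 to 45 kb past Cebpa. Every Hoxa9 peak and the 3 strongest C/EBPα peaks per window were also described singly. For each mark the plan was to describe the regions at the gene positions, the widest and the strongest. Of the 12 H3K4me1 regions that touched the Cebpa/Cebpg positions, only some were described. Other peaks, mostly neighbours of those described, were added after their values were seen. The members and this rule were chosen with earlier results of these data known. A planned comparison of the proteins was not run, as no protein sequences were used here. Gene neighbours are by name from RefSeq GRCm38.p6, another build than that of the lists.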

Additional observations from a re-analysis of the deposited data

How the results depend on the processing

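Of 34 alternatives to 9 results, 18 were counted as near the reported value and 16 as moved. Near is loose here. It includes 24 C/EBPα peaks in place of 34 with 50 kb on each side. It also includes 75% of Hoxa9 peaks shared in place of 62.5% among the upper 50% by score. With 50 kb on each side the windows held 24 C/EBPα peaks, but 5 Hoxa9 peaks in place of 8, 68 H3K4me1 regions in place of 122 and 5 H3K27me3 regions in place of 11. All 5 Hoxa9 peaks left then touched a C/EBPα peak (100%), since the 3 unshared ones lie further out, and H3K27me3 cover of the windows became 1.20% in place of 3.10%. Keeping the 50% with the highest scores left 4 Hoxa9 peaks, 80 H3K4me1 regions and 7 H3K27me3 regions. At a fold enrichment of 10 or more there were 13 C/EBPα peaks, 0 Hoxa9 peaks, 7 H3K4me1 regions and 2 H3K27me3 regions, and 1 C/EBPα peak 30 to 45 kb downstream of Cebpa in place of 3. H3K27me3 cover at that fold enrichment was 1.98%. With every list cut there, 0% of C/EBPα peaks touched a Hoxa9 peak, which is fixed because no Hoxa9 peak is left, and 38.5% touched one of the H3K4me1 regions kept, in place of 85.3%. With only the C/EBPα list cut, a setting chosen after seeing the data, 3 of 13 (23.1%) touched a Hoxa9 peak. Under the same cut, 10 of 13 (76.9%) touched an H3K4me1 region. Both were counted as near the reported 14.7% and 85.3%. All these settings keep fewer calls. Sharing among Hoxa9 peaks has no value at a fold enrichment of 10 or more. Requiring summits within 200 bp left 50% of Hoxa9 peaks shared in place of 62.5%, and 11.8% of C/EBPα peaks in place of 14.7%. With the summit inside the H3K4me1 region, the share of C/EBPα peaks was 76.5% in place of 85.3%. Requiring the summit inside a window left 121 H3K4me1 regions in place of 122 and the other counts unchanged. All of these were counted as near. No paired analysis was possible because each precipitation has 1 library. Sites too weak to be called are missing, and with 8 Hoxa9 peaks every share of them is imprecise.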

Other observations

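The H3K4me1 region with the highest fold enrichment in the Cebpe window was not beside Cebpe. It ran from 55421275 to 55422986 on chromosome 14, 90.3 kb above the gene, with a fold enrichment of 13.79 over 1.712 kb and 98 tags, rank 297 of 100189. A C/EBPα peak of modest strength (fold enrichment 5.35, 39 tags) had its summit 89.9 kb above the gene and touched this region.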
